A study of Mus musculus with 6 samples.

Results

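The levels of 10 genes of the germline and of the piRNA pathway were followed on 6 arrays of A3-1 cells, a line of mouse embryonic stem (ES) cells. They are Piwil2, Mael, Tdrd1, Tdrd9, Tdrd12, Ddx4, Dazl, Stra8, Sycp3 and Hormad1. Their rows (probe sets) were those annotated with 1 of these symbols alone. All 10 genes had such a row, of 19938 genes with a row of their own, and Hormad1 had 2, which makes 11 of 23410 rows with a gene. The groups were cells given a small interfering RNA (siRNA) against Lin28a (siLin28a), cells given an siRNA against green fluorescent protein as a control (siGFP), and untreated cells. Each group had 2 arrays, numbered replicate 1 and 2. All cells were kept in 20% fetal bovine serum with LIF, a cytokine that holds mouse ES cells undifferentiated, and the siRNA groups were taken after 48 h. Each siRNA group received 1 duplex in 1 cell line, so neither a second duplex nor a second line stands behind a difference.

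The piRNA pathway protects the germline genome. PIWI proteins, loaded with small piRNAs, recognise and silence transposons, and Tudor domain proteins and RNA helicases build the granules in which piRNAs are made. In mice most of these genes, and those that bring germ cells into meiosis, are kept silent in somatic tissues by promoter DNA methylation and by a variant Polycomb complex that binds through MGA, MAX and E2F6. Lin28a itself, the siRNA target, encodes an RNA-binding protein that blocks maturation of let-7 microRNAs and is also expressed in primordial germ cells.

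The siRNA against Lin28a is shown as the labels give it, without its deoxythymidine ends, because every difference between siLin28a and siGFP rests on this 1 duplex. Its 2 strands of 19 bases are complementary.
siLin28a strand 1: gcagaagcgaagauccaaa
siLin28a strand 2: uuuggaucuucgcuucugc

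Lin28a was at 7.4 on both siLin28a arrays, against 9.1 and 9.4 on the siGFP arrays and 9.1 and 9.4 on the untreated arrays (log2 expression). The log2 fold change of siLin28a against siGFP was -1.85 (SE 0.16, adjusted p 0.512 by limma). The array medians over all rows were 5.2 to 5.3. ES cell markers (8 of 8 measured, among them Pou5f1, Sox2 and Nanog) averaged 10.34 and 10.55 on the siLin28a arrays, 10.64 and 10.91 on the siGFP arrays, and 10.76 and 10.82 on the untreated arrays. All 8 were lower in siLin28a than in siGFP cells and than in untreated cells, and their part in the differences was not tested. In a bulk sample, fewer cells that express a gene and less RNA per cell cannot be told apart.

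No germline or piRNA gene passed the threshold, an adjusted p under 0.05 by limma over all rows with a gene, in any comparison. The log2 fold changes of siLin28a against siGFP were spread around 0, with 4 of the 10 genes higher, 4 lower and 2 equal. Mael was the highest at 0.65 and Dazl the lowest at -0.35. Against untreated cells both siRNA groups had lower values for Stra8, by 0.90 on the log2 scale in each, and for Dazl. The plot of each gene by array shows these 3 patterns, and the plot of fold changes sets them beside their errors.

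**Figure D1:**
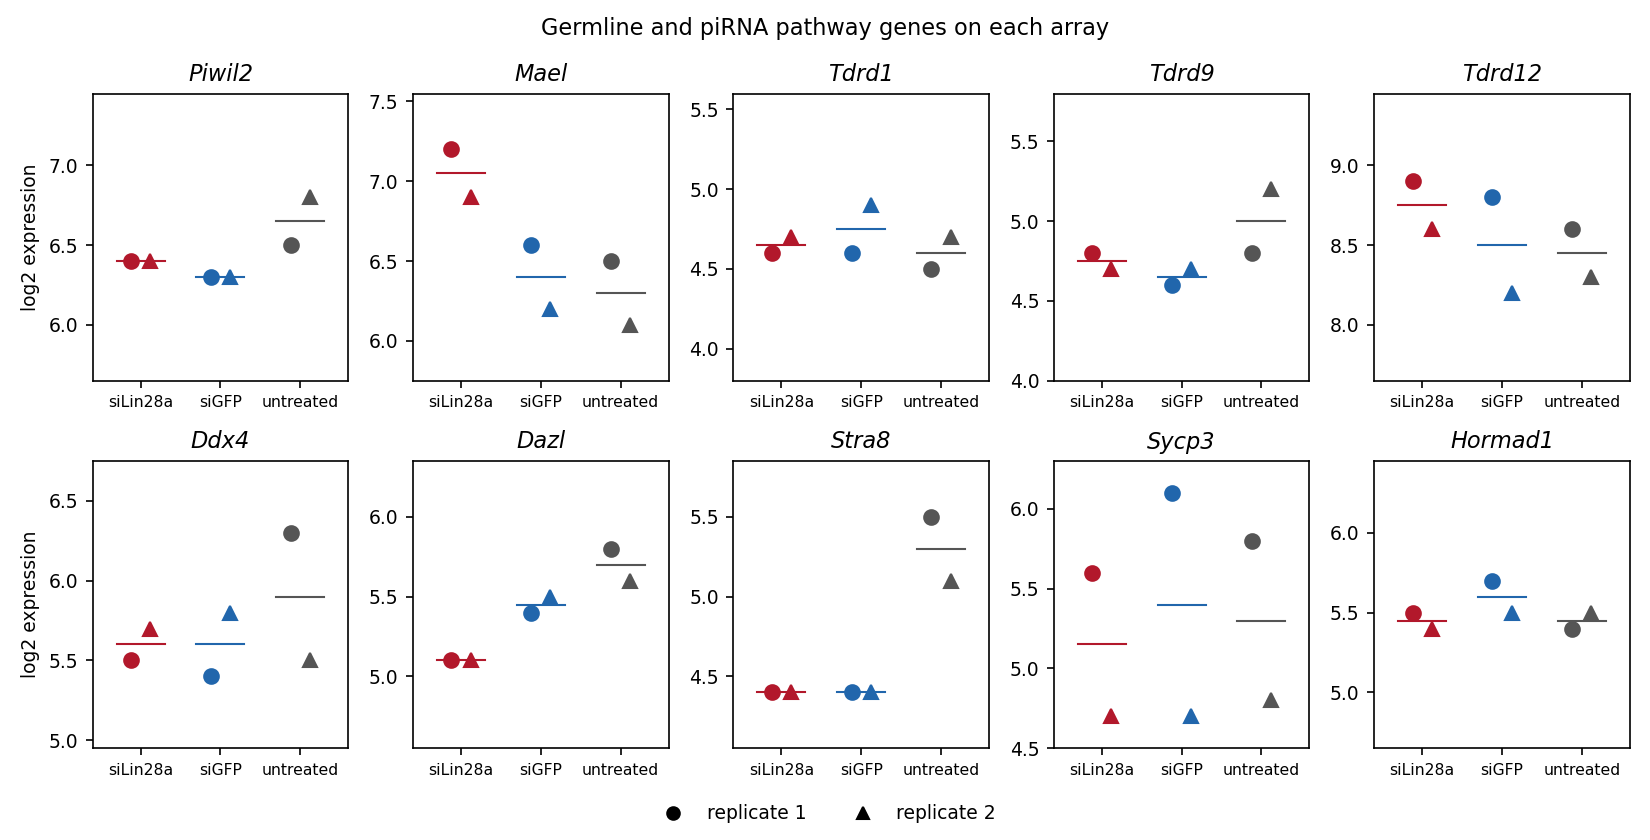
Log2 expression (vertical axis, 1.8 units in every panel) of the 10 genes in siLin28a, siGFP and untreated cells (horizontal axis). Points are single arrays, circles replicate 1 and triangles replicate 2, and lines are means of 2 arrays. Mael is highest on both siLin28a arrays, Stra8 is at 4.4 on all 4 siRNA arrays, and Sycp3 splits by replicate number.

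**Figure D2:**
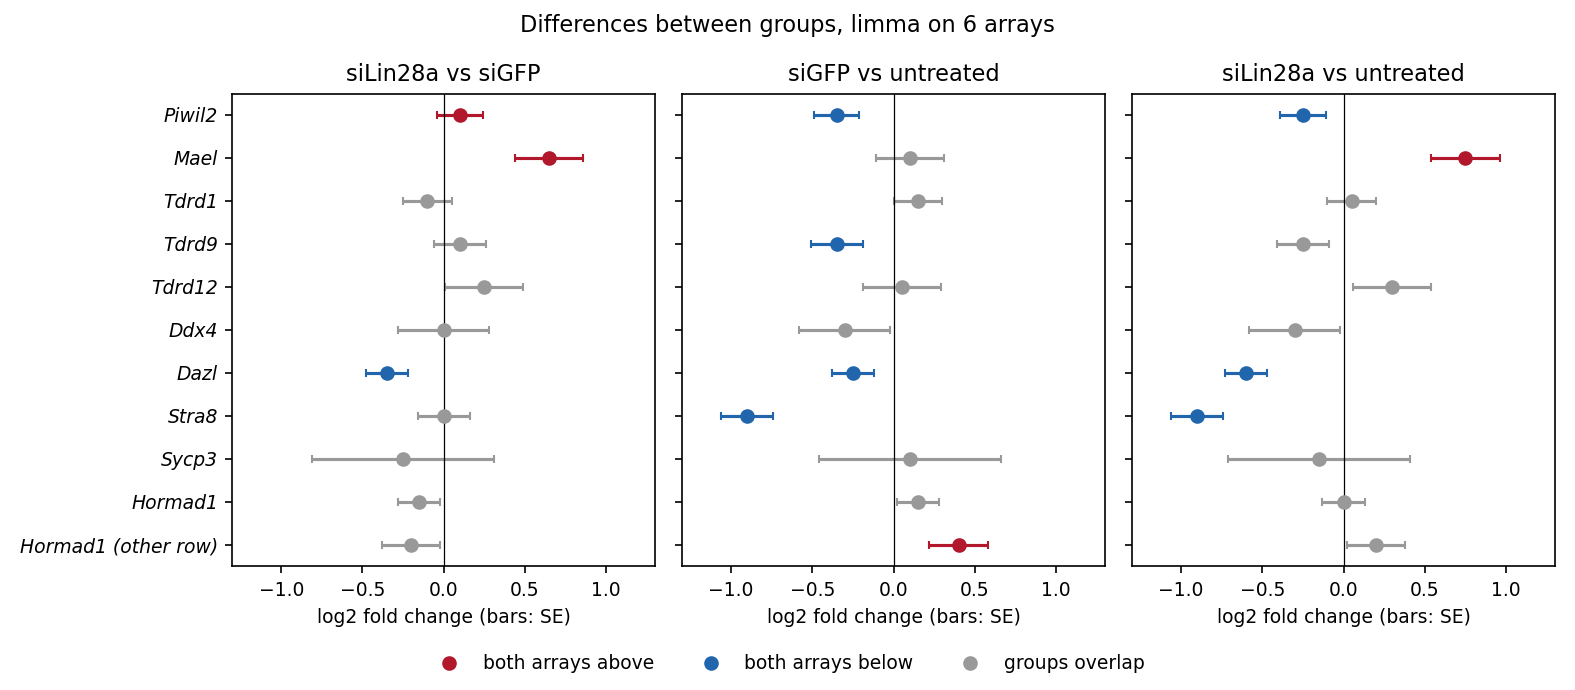
Log2 fold changes (horizontal axis) of the 11 rows in 3 comparisons with limma's standard errors as bars. Red and blue mark rows whose 2 arrays of the first group lie both above or both below the 2 arrays of the other. Mael at 0.65 and Dazl at -0.35 stand farthest from 0 in siLin28a against siGFP.

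Among the proteins that carry piRNAs, Piwil2 was measured. Piwil2 (MILI) binds piRNAs in fetal germ cells and cuts transposon transcripts. It was at 6.4 on both siLin28a arrays, 6.3 on both siGFP arrays, and 6.5 and 6.8 on the untreated arrays. The siLin28a arrays lay above the siGFP arrays by 1 step of the deposited scale, and both siRNA groups lay below the untreated arrays. This gave a log2 fold change of 0.10 for siLin28a against siGFP (SE 0.14, adjusted p 0.953 by limma). It was -0.35 for siGFP against untreated cells (SE 0.14, adjusted p 0.961 by limma) and -0.25 for siLin28a against untreated cells (SE 0.14, adjusted p 0.816 by limma). The last value was -0.40 without untreated replicate 1 and -0.10 without untreated replicate 2.

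Mael encodes Maelstrom, a protein of germ cell granules that is needed for transposon silencing in mouse testis. Mael was at 7.2 and 6.9 on the siLin28a arrays, 6.6 and 6.2 on the siGFP arrays, and 6.5 and 6.1 on the untreated arrays. Both siLin28a arrays were above all 4 others, and the siGFP and untreated arrays overlapped. The mean was 7.05 ± 0.21 in siLin28a cells and 6.4 ± 0.28 in siGFP cells (SD, n = 2 each). This is a level 1.57 times as high and a log2 difference of 0.65, with an SE of 0.21 and an adjusted p of 0.953 by limma. Between arrays of the same number the difference was 0.6 for replicate 1 and 0.7 for replicate 2. Against untreated cells the siLin28a value was 0.75 higher (SE 0.21, adjusted p 0.643 by limma). The siGFP difference from untreated cells was 0.10 and turned to -0.10 without untreated replicate 2 or without siGFP replicate 1.

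The Tudor domain genes had small differences. Tdrd1, a scaffold that binds PIWI proteins through methylated arginines, was at 4.6 and 4.7 on the siLin28a arrays, 4.6 and 4.9 on the siGFP arrays, and 4.5 and 4.7 on the untreated arrays. The 3 groups overlapped, and its differences lay between -0.10 and 0.15. The siLin28a difference from siGFP was -0.10 and was 0.05 without siGFP replicate 2, and that from untreated cells was 0.05 and was -0.05 without untreated replicate 1. Tdrd9, which joins a Tudor domain to a helicase and acts with MIWI2 (Piwil4), was at 4.8 and 4.7 on the siLin28a arrays, 4.6 and 4.7 on the siGFP arrays, and 4.8 and 5.2 on the untreated arrays. Both siGFP arrays were below both untreated arrays, with a log2 fold change of -0.35 (SE 0.16, adjusted p 0.961 by limma). It was -0.55 without untreated replicate 1 and -0.15 without untreated replicate 2.

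Tdrd12, a Tudor and helicase protein of secondary piRNA production, also carries the name ECAT8 in the RefSeq table. It was at 8.9 and 8.6 on the siLin28a arrays, 8.8 and 8.2 on the siGFP arrays, and 8.6 and 8.3 on the untreated arrays. Its values lay above 8 on every array, while the arrays of the 3 groups overlapped. Its fold change on the log2 scale was 0.25 for siLin28a against siGFP (SE 0.24, adjusted p 0.953 by limma) and -0.05 without siGFP replicate 2. For siGFP against untreated cells it was 0.05, and turned to -0.25 if siGFP replicate 1 was left out and to -0.10 if untreated replicate 2 was.

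Ddx4, the mouse vasa helicase of germ cell granules, was at 5.5 and 5.7 on the siLin28a arrays, 5.4 and 5.8 on the siGFP arrays, and 6.3 and 5.5 on the untreated arrays. Untreated replicate 1 was the highest array and the groups overlapped. The log2 fold change was 0.00 for siLin28a against siGFP and -0.30 for each siRNA group against untreated cells (SE 0.28). Each of the differences from untreated cells became 0.10 without untreated replicate 1.

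Dazl, an RNA-binding protein that controls translation in germ cells, had 1 order in which no neighbouring groups overlapped. It was at 5.1 on both siLin28a arrays, 5.4 and 5.5 on the siGFP arrays, and 5.8 and 5.6 on the untreated arrays. The nearest siGFP and untreated arrays, at 5.5 and 5.6, were apart by only the smallest step of the deposited values, 0.1. On the log2 scale the difference was -0.35 for siLin28a against siGFP (SE 0.13, adjusted p 0.953 by limma), -0.25 for siGFP against untreated cells (SE 0.13, adjusted p 0.961 by limma) and -0.60 for siLin28a against untreated cells (SE 0.13, adjusted p 0.558 by limma). The siLin28a level was 1.52 times lower than the untreated level. The row averaged 5.42 over the 6 arrays, near the array medians of 5.2 to 5.3 over all rows. How much of its signal stands above background was not tested.

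Stra8, a gene induced by retinoic acid that starts meiosis, was at 4.4 on both siLin28a arrays and 4.4 on both siGFP arrays, against 5.5 and 5.1 on the untreated arrays. The siRNA arrays did not differ from each other at the 0.1 step of the values and all lay below both untreated arrays. The log2 fold change was -0.90 for siGFP against untreated cells (SE 0.16, adjusted p 0.961 by limma) and -0.90 for siLin28a against untreated cells (SE 0.16, adjusted p 0.535 by limma), a level 1.87 times lower in each. The row was dim, with 4.4 below and 5.5 and 5.1 near the array medians of 5.2 to 5.3 over all rows. How much of its signal stands above background was not tested. The 2 comparisons share the untreated arrays and are not separate observations of a drop. The delivery of the siRNA, its 48 h and the handling of those cultures cannot be told apart from each other.

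Sycp3, a protein of the lateral elements of the synaptonemal complex, was at 5.6 and 4.7 on the siLin28a arrays, 6.1 and 4.7 on the siGFP arrays, and 5.8 and 4.8 on the untreated arrays. The groups overlapped fully, and replicate 1 was above replicate 2 in every group, by 0.9, 1.4 and 1.0. The log2 fold change of siLin28a against siGFP was -0.25 with an SE of 0.56, the largest SE of the 11 rows. It turned to 0.45 without siGFP replicate 1 and to 0.20 without siLin28a replicate 2. For siGFP against untreated cells the difference of 0.10 became -0.40 when untreated replicate 2 was left out and -0.60 when siGFP replicate 1 was. The siLin28a difference from untreated cells, -0.15, was 0.35 without untreated replicate 1 and 0.30 without siLin28a replicate 2. Leaving out 1 array leaves the replicate numbers unequally represented, so these values also carry the gap between replicate 1 and 2.

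Hormad1, which marks unsynapsed meiotic chromosome axes, was at 5.5 and 5.4 on the siLin28a arrays, 5.7 and 5.5 on the siGFP arrays, and 5.4 and 5.5 on the untreated arrays by its brighter row. Its range of 0.3 was the smallest of the 10 genes. The other row was at 2.6 and 3.0 on the siLin28a arrays, 2.9 and 3.1 on the siGFP arrays, and 2.5 and 2.7 on the untreated arrays. The rows differed in siGFP against untreated cells, where the brighter one had 0.15 with overlapping groups and the other 0.40 (SE 0.18) with both siGFP arrays above.

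Counts over the 10 genes took each gene by its brightest row and began with the comparison of siLin28a with siGFP. An adjusted p under 0.05 was reached by 0 of 10 genes and by 0% of 23410 rows. An unadjusted p under 0.05 was reached by 2 of 10 genes, Mael and Dazl, and by 4.05% of rows. The arrays did not overlap and were higher in siLin28a for 2 genes (Mael and Piwil2) and for 9.03% of rows. They were lower for 1 gene (Dazl) and for 11.8% of rows. The median log2 fold change was 0.00 over the 10 genes and 0.00 over all rows. Nothing particular to these genes was read from such counts of 2 against 1.

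In siGFP against untreated cells, 0 of 10 genes and 0% of rows passed. An unadjusted p under 0.05 was found for 2 genes (Stra8 and Piwil2) and for 3.52% of rows. Non-overlapping arrays were lower in siGFP for 4 genes (Stra8, Dazl, Piwil2 and Tdrd9), against 8.46% of rows, and higher for 0 genes, against 9.22% of rows. The median log2 fold change was -0.10 over the genes and 0.00 over all rows. The median was 0.075 without untreated replicate 1. The genes were chosen with earlier results of these data known, so nothing particular to them was read from these counts.

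In siLin28a against untreated cells, 0 of 10 genes and 0% of rows passed. An unadjusted p under 0.05 was found for 3 genes (Stra8, Dazl and Mael) and for 6.44% of rows. Arrays did not overlap and were lower in siLin28a for 3 genes (Stra8, Dazl and Piwil2), against 12.6% of rows, and higher for 1 gene (Mael), against 11.1% of rows. The median was -0.20 over the genes and 0.00 over all rows. It was -0.05 without untreated replicate 1, -0.075 without untreated replicate 2 and -0.10 without siLin28a replicate 2. Only Mael, Piwil2 and Tdrd12 had a mean of at least 6 over the 6 arrays. The 3 comparisons share arrays in pairs, so their counts are not independent. Nothing particular to these genes was read from the counts, because the genes were chosen with earlier results of these data known. Mael, Piwil2 and Tdrd12 alone had a median of 0.25 in siLin28a against siGFP and 0.30 in siLin28a against untreated cells.

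The promoters of these genes were also described by their letters. RefSeq promoter windows of GRCm38.p6 (250 bases before to 50 after an annotated start) were found for 9 of the 10 genes, all but Piwil2. For Stra8 and Ddx4 the window lies inside the annotated span of the gene, so the sequence before the span was not searched. The windows were searched on both strands for the E-box CACGTG, the letters that MGA and MAX bind, and for the E2F motif GCGGGA. Neither motif overlapped the other in the windows of these genes, and both motifs were picked after the windows had been read. Each motif holds a CpG, and these genes had a median of 24 CpG against 8 over all genes. The shares below were not matched for CpG count, so they only describe the windows. The E-box stood in 6 of 9 genes (66.7%), Mael, Tdrd1, Tdrd9, Ddx4, Sycp3 and Hormad1, against 8.09% of 27025 genes in the table. Tdrd9, Sycp3 and Hormad1 held 2 copies, and 0.681% of all genes held 2 or more. The E2F motif stood in 4 of 9 (Mael, Ddx4, Sycp3 and Hormad1, 44.4%), against 5959 of the 27025 genes, and each of these 4 also held the E-box, against 2.65% of all genes. Among the further lists the E-box stood in 6 of 20 piRNA genes, 6 of 30 meiosis genes, 8 of 28 germline genes silenced in somatic cells, 5 of 29 repressors of germline genes and 1 of 11 germ cell fate genes. The E2F motif stood in 18 of the 30 meiosis genes and 14 of the 29 repressors, larger shares than in the 9 genes, and in 7, 11 and 1 of the piRNA, silenced and germ cell fate genes.

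CpG dinucleotides numbered 10 to 38 in these windows (the highest window of a gene), with a median of 24 against 8 over all genes. The median was also 24 in the piRNA list, 29 in the repressors, 18 in the meiosis genes, 16 in the silenced germline genes and 14 in the germ cell fate genes. Ddx4 had 38 and Dazl 28, while Stra8 and Tdrd9 had 10. The 3 genes with no match to either motif, Dazl, Stra8 and Tdrd12, had log2 fold changes of -0.35, 0.00 and 0.25 in siLin28a against siGFP. Mael, with the highest fold change in siLin28a against siGFP, held both motifs, and so did Hormad1, Ddx4 and Sycp3 with values of -0.15, 0.00 and -0.25. The windows of Mael and Sycp3 are printed as the ones with both motifs whose genes had the highest fold change and the widest range over arrays, and those of Dazl and Stra8 as windows without a match. Capitals mark the E-box and the E2F motif on either strand.
Mael, chr1:166238695-166238994, minus strand: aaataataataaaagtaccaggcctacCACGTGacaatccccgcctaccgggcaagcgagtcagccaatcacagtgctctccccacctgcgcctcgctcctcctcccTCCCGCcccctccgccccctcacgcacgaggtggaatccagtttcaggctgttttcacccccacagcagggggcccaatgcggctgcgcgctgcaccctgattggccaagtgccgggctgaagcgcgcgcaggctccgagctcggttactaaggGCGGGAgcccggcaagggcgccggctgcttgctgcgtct
Sycp3, chr10:88459337-88459636, plus strand: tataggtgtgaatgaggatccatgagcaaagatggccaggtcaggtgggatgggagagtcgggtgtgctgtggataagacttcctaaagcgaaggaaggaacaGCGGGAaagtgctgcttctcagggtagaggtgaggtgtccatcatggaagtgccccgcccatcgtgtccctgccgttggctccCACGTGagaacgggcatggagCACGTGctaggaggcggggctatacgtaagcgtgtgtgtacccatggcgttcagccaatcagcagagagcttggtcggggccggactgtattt
Dazl, chr17:50293571-50293870, minus strand: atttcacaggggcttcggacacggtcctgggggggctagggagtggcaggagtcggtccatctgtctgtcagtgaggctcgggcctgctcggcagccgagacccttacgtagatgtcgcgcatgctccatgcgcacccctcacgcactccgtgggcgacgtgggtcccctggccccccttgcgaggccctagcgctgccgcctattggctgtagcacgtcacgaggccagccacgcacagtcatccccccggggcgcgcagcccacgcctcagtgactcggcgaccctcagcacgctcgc
Stra8, chr6:34920698-34920997, plus strand: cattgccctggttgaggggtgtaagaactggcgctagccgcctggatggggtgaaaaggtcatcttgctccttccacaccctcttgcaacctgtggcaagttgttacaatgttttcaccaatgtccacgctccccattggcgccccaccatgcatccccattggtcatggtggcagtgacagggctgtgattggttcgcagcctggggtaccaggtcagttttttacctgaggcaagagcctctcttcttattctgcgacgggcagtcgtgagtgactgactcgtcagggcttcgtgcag

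In the Mael window, counted from the gene's start, the E-box begins at -223 and the E2F motif at -143 and at 11. In the Sycp3 window both E-boxes lie close to the start, beginning at -64 and -43, and the E2F motif at -147. The E-boxes of Hormad1 begin at -57 and -20 in its first window. These matches are letters in a window and no binding was measured here.

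**Figure D3:**
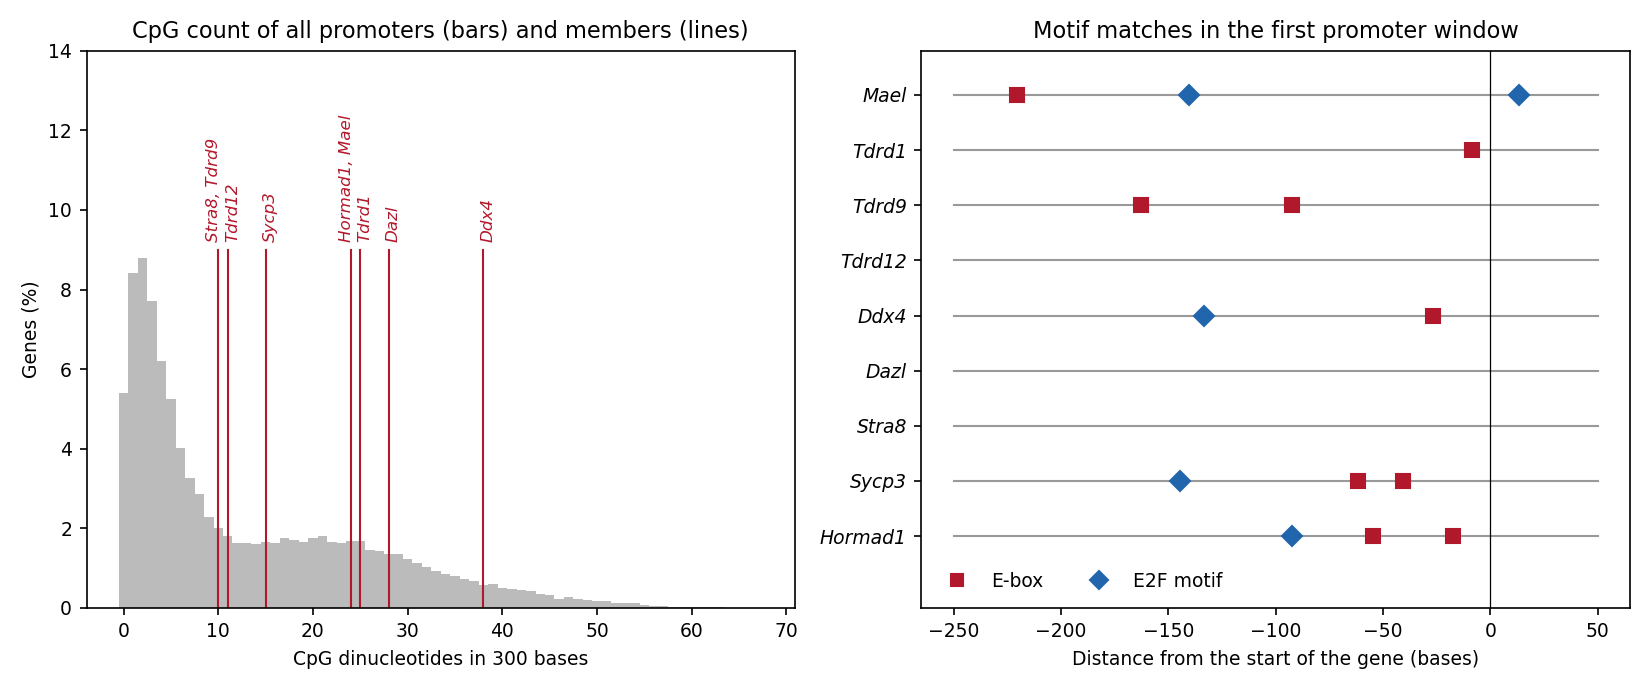
Left, CpG dinucleotides in 300 bases (horizontal axis) for all genes of the RefSeq promoter table as a share of genes in percent (bars), with the 9 genes as lines. Right, places of the E-box (squares) and the E2F motif (diamonds) by distance in bases from the annotated start of each gene's first window. The 9 genes have 10 to 38 CpG, and 6 of them hold an E-box.

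Other piRNA genes, 25 measured of 29 listed, had none past the threshold in any comparison. Throughout the lists that follow, the genes named had adjusted p-values by limma of at least 0.723 in siLin28a against siGFP, 0.961 in siGFP against untreated cells and 0.171 in siLin28a against untreated cells. In the same order, 4.05%, 3.52% and 6.44% of all rows had an unadjusted p under 0.05. The genes named for such a p do not by themselves set a list apart. Of the piRNA genes, 12 were higher, 8 lower and 5 equal in siLin28a against siGFP, with a median of 0.00 and 0 past the threshold. The single gene with an unadjusted p under 0.05 was Gtsf1, a zinc finger partner of PIWI proteins, at 5.9 and 5.5 on the siLin28a arrays and 5.4 and 4.9 on the siGFP arrays (0.55, SE 0.21). Between siGFP and untreated cells 9 were higher, 14 lower and 2 equal (median -0.05). Arrays were lower in siGFP without overlap for 7 of the 25, against 8.46% of all rows, and higher for 2, against 9.22%. Piwil4, the nuclear PIWI protein MIWI2, had -0.50 (SE 0.14), Exd1, a partner of Tdrd12, -0.50 (SE 0.14) and Mov10l1, the helicase that feeds precursors into the pathway, -0.35 (SE 0.14). In siLin28a against untreated cells 10 were higher and 13 lower. An unadjusted p under 0.05 was found there for 5 of the 25, all lower, beside 6.44% of all rows. Among them Mybl1, which switches on pachytene piRNA genes, had -0.70 (SE 0.20), Exd1 -0.40 and Mov10l1 -0.35. The brightest rows were those of Hsp90aa1, a chaperone used by every cell, at -0.15 in siLin28a against siGFP, and Wdr77, a cofactor of arginine methylation, at -0.05.

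Of 41 listed meiosis genes 32 were measured. In siLin28a against siGFP 16 were higher, 13 lower and 3 equal (median 0.02, 0 past the threshold). Mei4, needed for meiotic DNA breaks, was at 5.4 on both siLin28a arrays and 5.8 on both siGFP arrays (-0.40, SE 0.14). With siGFP set against untreated cells 15 were higher and 12 lower. There Tex11, a recombination gene on the X chromosome, had -0.80 (SE 0.23), Dmc1, the meiotic recombinase, 0.45 (SE 0.16) and Mei4 0.35. In siLin28a against untreated cells 16 were higher and 13 lower, with Tex11 at -0.70 and Syce2, a central element protein, at 0.35 (SE 0.14). Syce2 and Trip13, an ATPase that removes HORMA proteins, were the brightest, and had 0.30 and -0.15 in siLin28a against siGFP.

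Genes that specify germ cells, 18 measured of 20, were higher for 6, lower for 11 and equal for 1 in siLin28a against siGFP (median -0.10, 0 past the threshold). An unadjusted p under 0.05 was found for 4 of the lower genes and 1 of the higher, beside 4.05% of all rows. Prdm14, a repressor needed for primordial germ cells, was at 6.4 and 6.8 on the siLin28a arrays, 7.2 and 7.6 on the siGFP arrays and 7.4 on both untreated arrays. Kit, the receptor on which migrating germ cells depend, was at 8.4 and 8.7 on the siLin28a arrays, 9.2 on both siGFP arrays, and 9.2 and 9.5 on the untreated arrays. Tfap2c, a factor downstream of Prdm1, was at 7.6 and 7.8, 8.1 and 8.4, and 8.2 and 8.3 in the same order. For each of these genes both siLin28a arrays were below all 4 others, and each is also expressed by ES cells. Dppa3 (Stella) had 0.50 (SE 0.16) in siGFP against untreated cells, and the bright rows Dppa5a and Ifitm3 had -0.35 and 0.60 in siLin28a against siGFP.

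Germline genes silenced in somatic cells, 27 measured of 31 and partly shared with the lists above, were higher for 13, lower for 11 and equal for 3 in siLin28a against siGFP (median 0.00, 0 past the threshold). The 2 of 27 with an unadjusted p under 0.05, beside 4.05% of all rows, were retrogenes of ribosomal proteins. Such genes may share probe matches with their parent genes. Rpl10l was at 8.8 and 9.0 on the siLin28a arrays and 8.2 and 8.6 on the siGFP arrays (0.50, SE 0.17), and Rpl39l at 8.5 and 8.7 against 8.1 and 8.2 (0.45, SE 0.13). These were also the brightest of the list. Against untreated cells siLin28a had 12 higher and 13 lower, with Xlr, an X-linked relative of Sycp3, at -0.45, and siGFP had 9 higher and 14 lower.

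Repressors of germline genes, 31 measured of 32, were higher for 9, lower for 19 and equal for 3 in siLin28a against siGFP (median -0.10, 0 past the threshold). Dnmt3b, a de novo DNA methyltransferase, was at 9.5 and 9.4 on the siLin28a arrays, 8.4 and 8.2 on the siGFP arrays, and 8.0 and 8.1 on the untreated arrays. Both siLin28a arrays were above all 4 others (1.15 against siGFP, SE 0.13, adjusted p 0.723 by limma). Against untreated cells the siLin28a difference was 1.40 (SE 0.13, adjusted p 0.171 by limma). Its cofactor Dnmt3l was at 10.8 and 10.7 on the siLin28a arrays and 9.6 and 9.9 on the untreated arrays (1.00, SE 0.22), and siGFP cells had 0.55 against untreated cells (SE 0.22). Rybp, a Polycomb subunit, had -0.45 in that comparison (SE 0.13) and -0.35 in siGFP against untreated cells (SE 0.13). The brightest rows were Trim28 and Kdm5b, at -0.20 and -0.05 in siLin28a against siGFP. Between siGFP and untreated cells 14 repressors were higher and 10 lower, and in siLin28a against untreated cells 10 were higher and 18 lower.

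Activators of germline genes, 21 measured of 21, were higher for 11, lower for 9 and equal for 1 in siLin28a against siGFP (median 0.05, 0 past the threshold). The list also holds Cyp26a1 and Cyp26b1, enzymes that break down retinoic acid and are not activators. They had 0.30 (SE 0.12) and 0.15 (SE 0.13) and are counted among the higher genes. Tet2, an enzyme that oxidises methylated cytosine, was at 6.3 and 6.7 on the siLin28a arrays, 7.3 and 7.1 on the siGFP arrays, and 7.8 and 7.4 on the untreated arrays (-0.70 against siGFP, SE 0.20). Wt1, a gonad factor, had 0.60 (SE 0.14) and Rara, a retinoic acid receptor, 0.40 (SE 0.14) in siLin28a against siGFP. The related receptors Rarg and Rarb had 0.25 (SE 0.23) and -0.05 (SE 0.17). For this list in siGFP against untreated cells, 4 were higher, 14 lower and 3 equal, with a median of -0.20 beside 0.00 over all rows. Arrays were lower in siGFP without overlap for 8 of the 21 genes, Cyp26a1 among them, against 8.46% of all rows. They were higher without overlap for 0, against 9.22%. Dmrt1, a factor of gonads and germ cells, was at 7.0 and 7.6 on the siGFP arrays and 8.2 and 8.0 on the untreated arrays (-0.80, SE 0.21), and Rxrb, a partner of retinoic acid receptors, had -0.30 (SE 0.12). In siLin28a against untreated cells 10 were higher and 10 lower, among them Tet2 at -1.10 (SE 0.20), Wt1 at 0.60 and Rxrb at -0.40. The brightest rows, Mycn and Tet1, had 0.05 and -0.20 in siLin28a against siGFP.

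**Figure D4:**
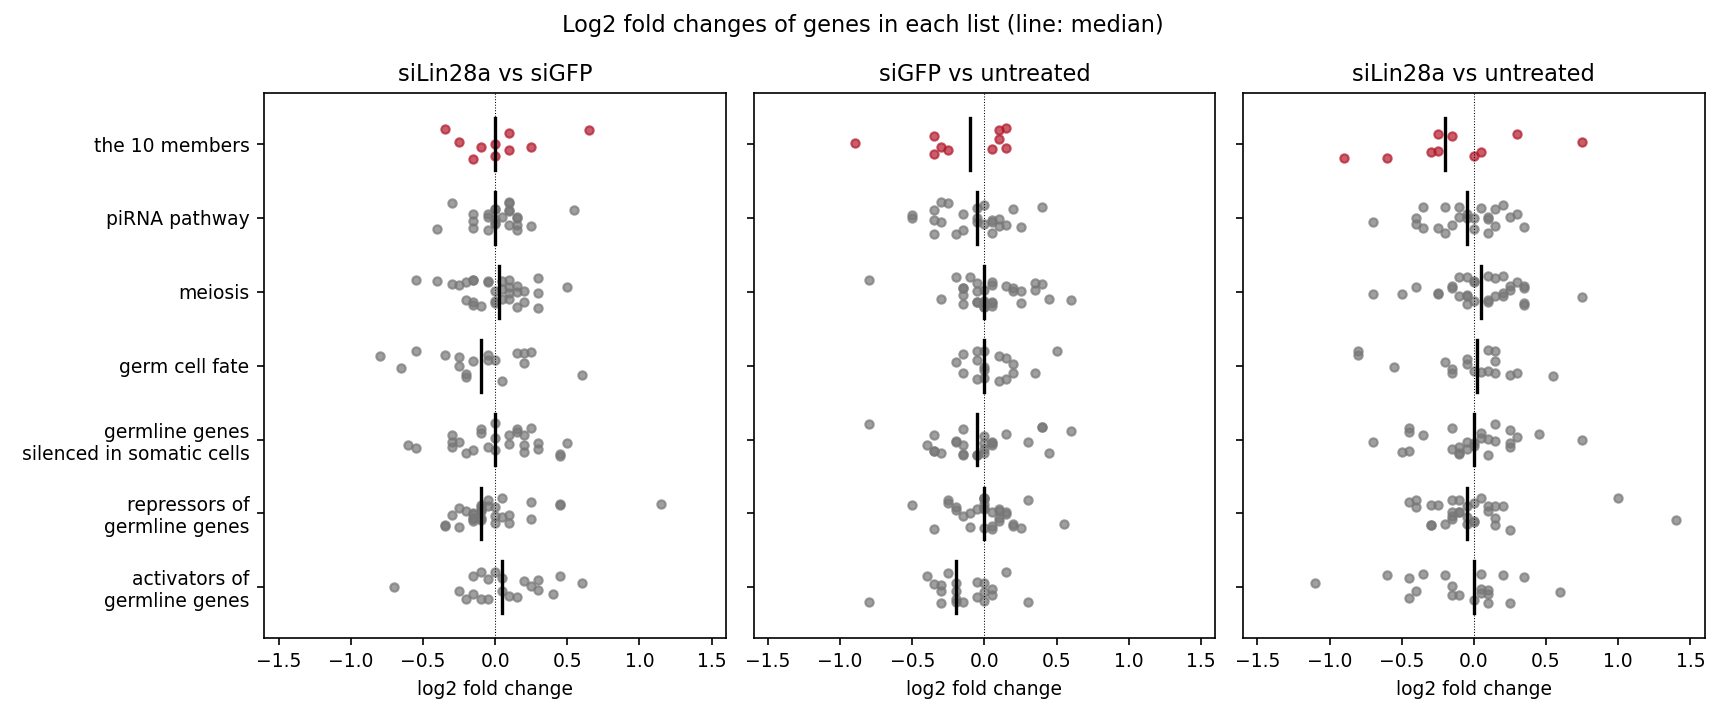
Log2 fold changes (horizontal axis) of single genes in the 10 genes of the germline and piRNA pathway and in 6 further lists, for 3 comparisons. Vertical lines are medians, and points are scattered vertically only to separate them. Medians lie between -0.20 and 0.05, and the point at 1.15 among the repressors is Dnmt3b.

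The mean profile of the 10 genes over the 6 arrays, each centred on its own mean, was 0.03 and -0.11 on the siLin28a arrays, 0.02 and -0.15 on the siGFP arrays, and 0.20 and -0.01 on the untreated arrays. It was set beside 4298 rows with 1 symbol, a mean of at least 6 and a range of at least 0.5. The 10 genes, predicted genes, Rik clones and genes named Olfr or Vmn were left out. Of these 4298 rows, those most like it were Ndufaf6 (Pearson r 0.928 over 6 arrays), Eif4e (0.926) and Zmiz1 (0.914). With 6 arrays in 3 groups these values only describe the arrays.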

How the data were processed

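Total RNA (300 ng, Trizol) of 6 A3-1 samples was hybridised to Affymetrix arrays, per the labels' protocols. The authors deposited log2 values, computed in Affymetrix Expression Console by RMA (background correction, quantile normalization and a summary per probe set), per the submitters' processing notes. No software version or genome build is given in the sources used here. All values are in steps of 0.1, so a spread of 0 means equal to 1 decimal, and their number limits the precision. Rows were named from GEO's platform annotation, and the symbol of 0 of the 11 rows needed an update in RefSeq.

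Groups were compared with limma 3.58.1 under R 4.3.3 (a linear model per row with empirical Bayes variances, two-sided) on all 6 arrays in 3 groups, with 3 residual and 3.19 prior degrees of freedom and Benjamini-Hochberg adjustment over 23410 rows. The script was tested on simulated data. SE is limma's moderated standard error. An exact permutation of 2 against 2 arrays cannot go below 0.333. The labels do not say whether replicates are separate cultures, so p-values measure only the spread between arrays. A row's brightness also depends on its probes. Rows called bright or dim and means over marker lists therefore describe signal, not the relative RNA amounts of different genes. The members and gene lists were chosen with earlier results of these data known. Genes of the other lists counted as measured if a row carried their symbol alone. Each was taken by its brightest row, and further rows of genes such as Dppa3 and Tet1 are not given. Named from each other list were up to 3 genes per comparison with an unadjusted p under 0.05 and the 2 brightest.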

Additional observations from a re-analysis of the deposited data

How the results depend on the processing

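As reported, 0 rows passed in any comparison, and under every alternative run no row of the 10 germline and piRNA genes passed, the smallest adjusted p being 0.189 (Stra8, siLin28a against untreated cells, by limma). With cyclic loess 1 row passed in siLin28a against siGFP and 5 in siLin28a against untreated cells, and with a robust prior 1 and 7. Lin28a was among them each time, and Dnmt3b, of the repressor list, in siLin28a against untreated cells under both settings. Least squares without a prior left 111 rows with no spread untested and called 0. Leaving out rows with a mean under 6 kept 3 of the genes, whose median was 0.25 in siLin28a against siGFP and 0.3 against untreated cells. The 3 other normalizations gave medians of -0.05 to -0.008 in siLin28a against siGFP, -0.09 to -0.05 in siGFP against untreated cells and -0.2 to -0.162 in siLin28a against untreated cells. Without single arrays the siGFP median against untreated cells ran from -0.225 to 0.075, and the siLin28a median against untreated cells from -0.225 to -0.05. In siLin28a against siGFP, leaving out 1 array gave Sycp3 -0.95 to 0.45, Tdrd1 -0.25 to 0.05 and Tdrd12 -0.05 to 0.55. In siGFP against untreated cells it gave Ddx4 -0.70 to 0.10, Mael -0.10 to 0.30, Tdrd12 -0.25 to 0.35 and Sycp3 -0.60 to 0.80. There Piwil2 had -0.50 to -0.20 and Dazl -0.35 to -0.15. In siLin28a against untreated cells it gave Ddx4 -0.70 to 0.10, Tdrd1 -0.05 to 0.15 and Sycp3 -0.65 to 0.35. The cause was not tested. Mael kept its direction in siLin28a against siGFP, with 0.45 to 0.85.

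Arrays with the same number deviated together at a correlation of 0.357 between siLin28a and siGFP, 0.154 between siGFP and untreated cells and -0.035 between siLin28a and untreated cells, across rows. With 2 pairs per comparison the numbers were not taken as pairs. With the replicate block the count of passing rows stayed at 0 in each comparison, rows with an unadjusted p under 0.05 in siLin28a against siGFP numbered 1350, and Mael had 0.65 (SE 0.07, adjusted p 0.719 by limma). Sycp3 had -0.25 in that comparison (SE 0.16, adjusted p 0.781 by limma), beside an SE of 0.56 without the block.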

Other observations

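Markers of differentiated germ cells in testis and ovary, 16 measured of 16 and among them protamines, transition proteins and zona and oocyte genes, averaged 4.44 and 4.52 on the siLin28a arrays, 4.36 and 4.39 on the siGFP arrays, and 4.47 and 4.44 on the untreated arrays. Single genes of this list averaged 2.28 to 6.02 over the arrays, with the egg coat gene Zp3 and the lactate dehydrogenase Ldhc the brightest. In siLin28a against siGFP 8 were higher, 5 lower and 3 equal, with 0 past the threshold by limma. The protease Prss50 at 0.40 (SE 0.16) was the 1 gene of 16 with an unadjusted p under 0.05, beside 4.05% of all rows. In siGFP against untreated cells 4 were higher and 9 lower, 7 of them without overlap between the arrays, against 8.46% of all rows that were lower without overlap. Primitive endoderm markers (8 of 8) averaged 4.62 to 4.68 on all arrays, and feeder fibroblast markers (10 of 10) 5.45 to 5.64, with the matrix gene Fn1 at 11.17. Markers of the 2-cell-like state, 6 measured of 13, averaged 4.40 and 5.02 on the siLin28a arrays, 4.32 and 4.63 on the siGFP arrays, and 4.33 and 4.67 on the untreated arrays. The Zscan4 genes, Dux and other listed genes had no row with their symbol alone, so they were not counted as measured. Among these, Gm4340 lies on a row with several symbols. With the robust prior that row passed in siLin28a against untreated cells. Most of the 6 were Usp17 genes, and Usp17ld alone was at 6.6 and 9.5 on the siLin28a arrays, so these means are a poor measure of that state. The part of these marker lists in the values of the germline genes was not tested.

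The gap of Sycp3 between replicate 1 and replicate 2 was among the widest on the arrays. Of 23410 rows 3 (0.0128%) had replicate 1 at least 0.9 above replicate 2 in all 3 groups, Sycp3, Olfr767 and Dzip3, and 4 (0.0171%) had the opposite, Tns1, AY036118, Usp17ld and n-R5s136. These rows were chosen after their values were seen. Dzip3, a ubiquitin ligase, was at 6.3 and 5.4 on the siLin28a arrays, 6.7 and 5.6 on the siGFP arrays, and 6.5 and 5.4 on the untreated arrays. Usp17ld, a deubiquitinase of a family of near-identical genes that is listed with the 2-cell-like markers, was at 6.6 and 9.5 on the siLin28a arrays, 6.8 and 8.9 on the siGFP arrays, and 6.9 and 8.7 on the untreated arrays. Replicate 2 was above replicate 1 in all 3 groups for 17.2% of rows and below it for 5.56%. Among the 10 germline and piRNA genes, 3 (Mael, Tdrd12 and Sycp3) had replicate 1 higher in every group and 1 (Tdrd1) had replicate 2 higher in every group.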
